A study of Galdieria sulphuraria with 9 samples.

Results

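Sm and LSm proteins are small RNA-binding proteins that assemble into rings around RNA. 4 genes of *Galdieria sulphuraria* 074W, a single-celled red alga that lives in hot acid springs, are described here, chosen by the product names that the study's own tables give to their gene numbers. They are Gs28640 (small nuclear ribonucleoprotein F, called SmF here), Gs07120 (LSM8), Gs55930 (LSm4) and Gs52650 (LSM1), 4 of the 6538 genes in the count files. All 4 had reads in every library and were among the 6195 genes that passed the filter on low counts. RNA was sequenced from 9 libraries of batch cultures A, B and C that were moved through a single temperature timeline, and the labels give no strain or treatment difference other than temperature and time. The timeline opened with H-42 (cultures B and C, after 2 weeks at 42 °C), went on to C-28.1 (A, B and C, after 48 h at 28 °C) and H-46 (A and C, after 48 h at 46 °C), and closed with C-28.2 (A and C, after 48 h at 28 °C). The 5 libraries at 28 °C are called cold and the 4 libraries at 42 and 46 °C heat. A cold sampling always followed a hot one, so the direction of the shift and the temperature cannot be told apart, nor can the 46 °C treatment and the time spent in the experiment.

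In yeast and human cells the Sm ring, of which SmF is a subunit, forms on most of the small nuclear RNAs of the spliceosome, the machine that removes introns from pre-mRNA. A related ring of LSm proteins that contains LSM8 stays in the nucleus and binds the end of U6 snRNA. In the cytoplasm LSM1 takes the place of LSM8, and that ring binds mRNAs with shortened poly(A) tails and promotes their decapping and decay. LSm4 belongs to both LSm rings. SmF and LSM8 are therefore treated as nuclear members, LSM1 as the cytoplasmic member and LSm4 as shared. This follows their product names and the roles in yeast and human, since location was not measured in the alga. The study's own search by phylogeny did not mark the human LSm protein NAA38 in this species. Its list of LSm proteins has no separate entry named LSM8, so that blank may concern LSM8 itself. Whether Gs07120 is the counterpart of human LSM8 was not checked here. Its use as the marker of the nuclear LSm ring rests on its product name alone. That search lists further Sm and LSm subunits for this species, which are not described here.

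Total counts per library were between 4389066 and 8989387, and between 75 and 1571 counts fell on a member in a library. Levels are given as normalised read counts (CPM, counts brought to a common library size), with libraries scaled by TMM, a method that sets the bulk of genes level between libraries. CPM are shares of a library, so more mRNA of a gene per cell and less mRNA of other genes cannot be told apart. The cultures of H-46 and those of C-28.2 differed more among themselves than the cultures of the other samplings. The median gene differed by 0.46 (log2, either direction) between the 2 libraries of H-46 and by 0.37 between those of C-28.2, against 0.15 to 0.22 between libraries of H-42 or of C-28.1. By the study's methods the replicate cultures were kept apart from the start of growth at 42 °C.

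On the CPM scale divided by gene length, which allows only a rough comparison of different genes, LSM1 and LSm4 were the most abundant members. LSM1 averaged 226 ± 49.6 CPM per kb and LSm4 183 ± 77.9 CPM per kb (SD over all 9 libraries). SmF averaged 92.8 ± 55.4 CPM per kb and LSM8 38.3 ± 19.5 CPM per kb (SD, n = 9). LSM1 was the highest in 6 libraries and LSm4 in the other 3, so their order did not hold beyond the spread of LSm4. LSM8 was the lowest in 8 of 9 libraries, and in culture A of H-46 SmF lay below it, at 33.9 against 42.3 CPM per kb. Among the 6195 tested genes, by mean CPM per kb, LSM1 stood at percentile 88.7, LSm4 at 86.3, SmF at 72.8 and LSM8 at 46.9. Gene lengths were those of the annotated spans (1091 bases for SmF, 851 for LSM8, 584 for LSm4 and 721 for LSM1), introns included. They are not transcript lengths, and 646 bases of the SmF span are shared with a neighbouring gene. Without division by length, the means over all libraries were 163 CPM for LSM1, 107 for LSm4, 101 for SmF and 32.6 for LSM8.

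**Figure D1:**
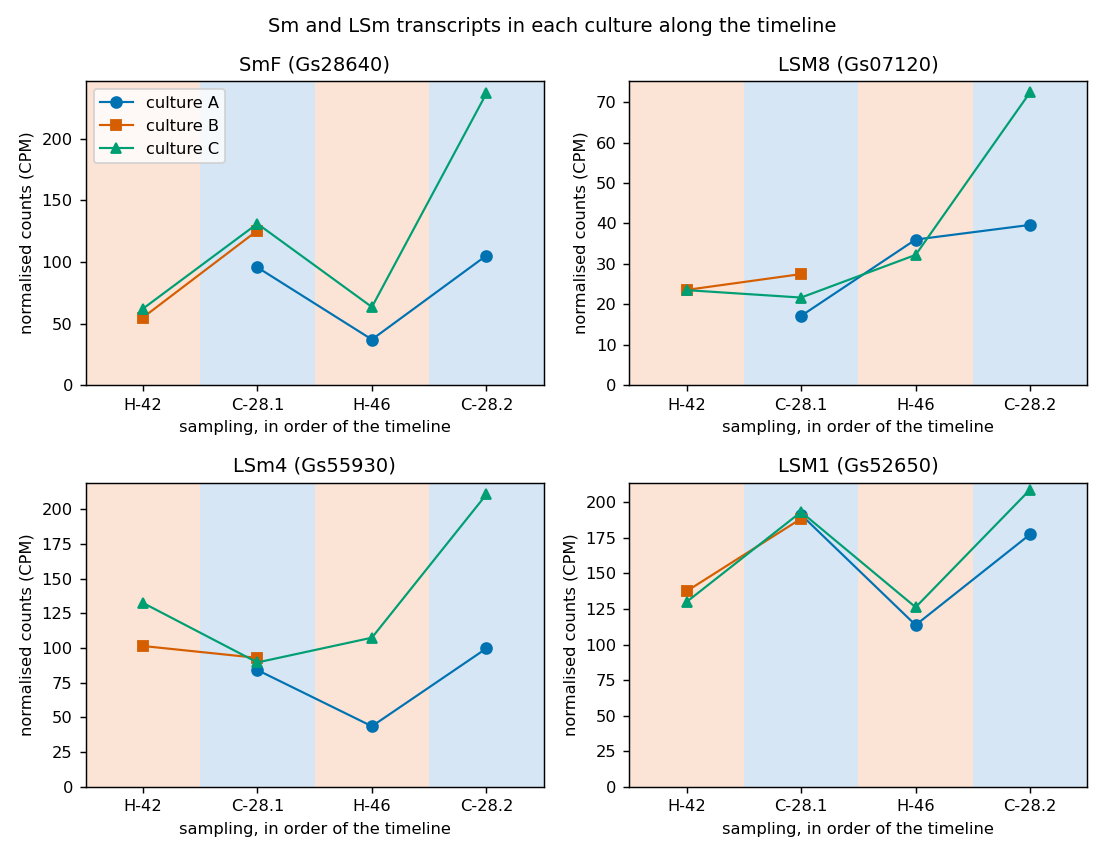
Normalised counts (CPM, vertical axis from 0) of the 4 members by sampling (horizontal axis, in order of the timeline; blue bands 28 °C, orange bands 42 or 46 °C). Each point is a library and each line joins the libraries of 1 culture: SmF and LSM1 form the same zigzag with temperature, LSM8 is higher in the last 2 samplings, and culture C of C-28.2 is the highest library for every member.

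The question of the first comparison is whether the members were expressed differently in cold and in heat. SmF and LSM1 were higher in cold than in heat, SmF by 2.55-fold and LSM1 by 1.51-fold, and in both genes every cold library lay above every heat library. LSM8 and LSm4 did not pass the test. Of the nuclear members, SmF was called and LSM8 was not, and their ratio, chosen after the values were seen, is described further on. At an adjusted p below 0.05, 2 of 4 members were higher in cold and 0 were lower, where 21.4% of all genes tested were higher and 20.5% lower. The members' median log2 fold change was 0.45, against -0.01 over all genes. That 2 of 4 members had cold and heat libraries that did not overlap stands beside 17.1% of all genes tested whose every cold library lay above every heat library. The members were chosen with earlier results of these data known. These counts, the median and the counts at single steps below are therefore not independent evidence of a direction.

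SmF had 95.6, 125 and 131 CPM in C-28.1 (cultures A, B, C) and 105 and 237 CPM in C-28.2 (cultures A, C), against 54.8 and 61.9 CPM in H-42 (cultures B, C) and 37.0 and 63.4 CPM in H-46 (cultures A, C). The lowest cold library was thus 95.6 CPM and the highest heat library 63.4 CPM, and culture C of C-28.2 stood above the other cold libraries. SmF averaged 139 ± 56.7 CPM in cold (SD, n = 5) and 54.3 ± 12.1 CPM in heat (SD, n = 4). The difference came to a log2 fold change of 1.35 ± 0.27 (SE), with an adjusted p of 0.00185 by the quasi-likelihood test of edgeR after Benjamini-Hochberg correction. An exact two-sided permutation test of its log2 CPM gave p = 0.00794, the smallest that 5 libraries against 4 allow. That test treated the libraries as independent, although they were repeated samplings of cultures A, B and C. No permutation within cultures was run for single members. With culture as a block in edgeR, the log2 fold change was 1.44 (adjusted p = 0.000446).

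SmF was the only member that also passed the stricter limits (adjusted p below 0.01 and more than 2.5-fold), which 5.42% of all genes tested passed upward. It lay just over that fold: the log2 fold change was 1.07 without culture C of C-28.2, 1.22 without culture A of H-46 and 1.26 with library totals in place of TMM, each under the limit of 1.32, while the adjusted p stayed at or below 0.00702 in every alternative. The annotated span of SmF shares 646 bases with the next gene, Gs28650, in the reference assembly. The strand setting of the counting is not given in the sources used here, so the division of reads between these genes is uncertain. Gs28650 averaged 44.9 CPM and did not pass the test (log2 fold change 0.22, adjusted p = 0.326 by edgeR).

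LSM1, the member that marks the cytoplasmic ring, had 191, 188 and 193 CPM in C-28.1 (cultures A, B, C) and 177 and 209 CPM in C-28.2 (cultures A, C), against 137 and 130 CPM in H-42 (cultures B, C) and 114 and 126.2 CPM in H-46 (cultures A, C). Relative to the mean, libraries of 1 temperature class lay closer together than for any other member, and cold and heat did not overlap. The mean was 192 ± 11.3 CPM in cold (SD, n = 5) and 127 ± 9.93 CPM in heat (SD, n = 4). The log2 fold change was 0.60 ± 0.15 (SE), with an adjusted p of 0.00678 by edgeR with Benjamini-Hochberg adjustment, and the exact permutation test gave p = 0.00794. That permutation also treated the libraries as independent. With culture as a block in edgeR, the log2 fold change was 0.62 (adjusted p = 0.00880). LSM1 did not reach the 2.5-fold limit.

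LSM8 is treated, by its product name, as the member that marks the nuclear LSm ring. It had 17.1, 27.5 and 21.7 CPM in C-28.1 (cultures A, B, C) and 39.6 and 72.5 CPM in C-28.2 (cultures A, C). In heat it had 23.5 and 23.5 CPM in H-42 (cultures B, C) and 36.0 and 32.2 CPM in H-46 (cultures A, C). Cold and heat libraries overlapped, with both the lowest and the highest library among the cold ones. The means were 35.7 ± 22.2 CPM in cold (SD, n = 5) and 28.8 ± 6.31 CPM in heat (SD, n = 4). The log2 fold change was 0.31, with a 95% interval of -0.47 to 1.09 and an adjusted p of 0.512 by edgeR (exact permutation test, p = 0.794). The interval includes a rise larger than that of LSM1 as well as a fall. Without culture C of C-28.2 the log2 fold change of LSM8 was -0.11.

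LSm4, the subunit common to both LSm rings, had 84.2, 93.0 and 89.7 CPM in C-28.1 (cultures A, B, C) and 99.8 and 211 CPM in C-28.2 (cultures A, C), against 102 and 133 CPM in H-42 (cultures B, C) and 43.7 and 108 CPM in H-46 (cultures A, C). The groups overlapped, and the lowest and highest libraries came from H-46 and C-28.2, whose cultures differed most. The means were 116 ± 53.6 CPM in cold (SD, n = 5) and 96.4 ± 37.6 CPM in heat (SD, n = 4). The log2 fold change was 0.26, with a 95% interval of -0.46 to 0.98 and an adjusted p of 0.555 by edgeR (exact permutation test, p = 0.548). It was -0.07 without culture C of C-28.2.

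Each step of the timeline was then compared separately, in a model with the 4 samplings. Comparisons that follow each other share a sampling: C-28.1 enters both the first cold shift and the rewarming, and H-46 both the rewarming and the second cold shift. SmF and LSM1 passed the test at every step, higher after each cold shift and lower after rewarming, whereas LSM8 and LSm4 passed it at none. SmF showed the largest change of the members at each step.

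**Figure D2:**
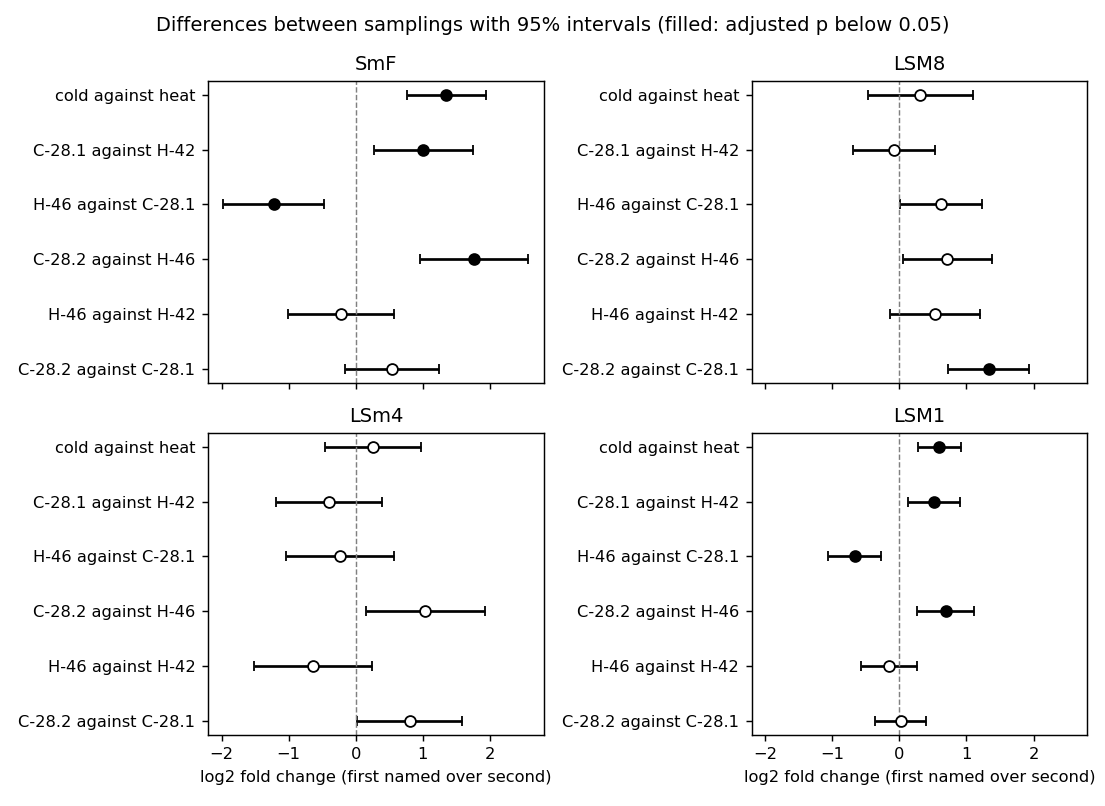
Log2 fold changes of the 4 members (horizontal axis, the first named sampling over the second) for cold against heat and for 5 comparisons of samplings. Bars are 95% intervals and filled points passed an adjusted p below 0.05: SmF and LSM1 are filled at each change of temperature, LSM8 only for C-28.2 against C-28.1, and LSm4 at none.

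In C-28.1 against H-42, the first cold shift, 2 of 4 members were higher and none was lower, where 21.4% of genes tested were higher. SmF averaged 117 ± 19.1 CPM in C-28.1 (SD, n = 3) and 58.4 ± 5.05 CPM in H-42 (SD, n = 2), a log2 fold change of 1.01 ± 0.33 (SE, adjusted p = 0.0312 by edgeR). LSM1 averaged 191 ± 2.38 CPM in C-28.1 (SD, n = 3) and 134 ± 5.33 CPM in H-42 (SD, n = 2), a log2 fold change of 0.51 ± 0.18 (SE, adjusted p = 0.0361 by edgeR). LSM8 and LSm4 had log2 fold changes of -0.08 (95% interval -0.69 to 0.53) and -0.40 (95% interval -1.19 to 0.39). Both calls rested on few libraries. The call of SmF was lost without either library of H-42 or without culture B or C of C-28.1, that of LSM1 without any 1 of the 5 libraries compared, and the adjusted p reached 0.169 for SmF and 0.221 for LSM1.

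In H-46 against C-28.1, the rewarming, 2 of 4 members were lower and none was higher, where 21.1% of genes tested were lower. SmF averaged 50.2 ± 18.7 CPM in H-46 (SD, n = 2) and 117 ± 19.1 CPM in C-28.1 (SD, n = 3), and its log2 fold change of -1.23 ± 0.34 (SE) had an adjusted p of 0.0139 by edgeR. LSM1 averaged 120 ± 8.86 CPM in H-46 (SD, n = 2) and 191 ± 2.38 CPM in C-28.1 (SD, n = 3), and its log2 fold change was -0.67 ± 0.18 (SE, adjusted p = 0.0112 by edgeR). LSM8 had the opposite sign, with 34.1 ± 2.68 CPM in H-46 (SD, n = 2) and 22.1 ± 5.19 CPM in C-28.1 (SD, n = 3). Its log2 fold change was 0.62 ± 0.28 (SE, adjusted p = 0.0960 by edgeR), and with culture as a block, which compares libraries of the same culture, it was 0.79 (adjusted p = 0.0293). LSm4 had a log2 fold change of -0.24 (95% interval -1.05 to 0.58). Without culture A of H-46 the call of SmF was lost (log2 fold change -0.91, adjusted p = 0.0691). LSm4 depended on the same pair of libraries: it was 0.25 without culture A of H-46 (adjusted p = 0.556) and was called, at -1.03, without culture C (adjusted p = 0.0441). LSM8 was called with library totals (0.80, adjusted p = 0.0306) and without culture A or C of C-28.2 (0.60 and 0.61, adjusted p = 0.0455 and 0.0438).

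In C-28.2 against H-46, the second cold shift, 2 of 4 members were higher and none was lower, where 17.4% of genes tested were higher. SmF averaged 171 ± 93.1 CPM in C-28.2 and 50.2 ± 18.7 CPM in H-46 (SD, n = 2 each), a 3.41-fold difference with a log2 fold change of 1.77 ± 0.37 (SE, adjusted p = 0.00424 by edgeR). LSM1 averaged 193 ± 22.2 CPM in C-28.2 and 120 ± 8.86 CPM in H-46 (SD, n = 2 each), with a log2 fold change of 0.69 ± 0.19 (SE, adjusted p = 0.0184 by edgeR). LSm4 averaged 155 ± 78.6 CPM in C-28.2 and 75.6 ± 45.2 CPM in H-46, and LSM8 56.1 ± 23.2 CPM in C-28.2 and 34.1 ± 2.68 CPM in H-46 (SD, n = 2 each). Their log2 fold changes of 1.04 and 0.71 had adjusted p of 0.0690 and 0.0917 by edgeR, and with culture as a block LSm4 passed the test (1.06, adjusted p = 0.00770). The call of LSM1 was lost without culture C of C-28.2 (0.57, adjusted p = 0.0755), while LSm4 was called by DESeq2 (1.04, adjusted p = 0.0411), without culture C of H-46 (1.83, adjusted p = 0.00398) and without culture A of C-28.2 (1.5, adjusted p = 0.0178). LSm4 was 0.40 without culture C of C-28.2 (adjusted p = 0.499) and 0.55 without culture A of H-46 (adjusted p = 0.260). LSM8 was called without culture A of C-28.2 (1.10, adjusted p = 0.0163) and was 0.22 without culture C (adjusted p = 0.618). SmF was called whichever library was left out, with a log2 fold change of 1.07 without culture C of C-28.2.

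The same cultures were followed from 1 sampling to the next in 6 cases, 4 at a cold shift (B and C at the first, A and C at the second) and 2 at rewarming (A and C). SmF was higher after all 4 cold shifts, by 1.08 to 1.90 on the log2 CPM scale, and lower after both rewarmings, with changes of -1.37 and -1.05. LSM1 showed the same signs with a narrower range, 0.46 to 0.73 after cold shifts and -0.75 and -0.61 after rewarming. LSM8 was higher after both rewarmings (1.07 in culture A and 0.57 in culture C) and higher after 3 of 4 cold shifts. LSm4 had no common sign: it was higher after 2 of 4 cold shifts and after 1 of 2 rewarmings.

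The size of the second cold shift relative to the first was compared in the same model. None of the 4 members passed the test of the difference, and only 0.0161% of all genes tested, 1 gene, did so by edgeR. At an unadjusted p below 0.05 the difference passed for 1 of 4 members, LSm4, and DESeq2 called 0 of 4. The difference in log2 fold change was 1.43 ± 0.54 (SE) for LSm4 (adjusted p = 0.139), 0.79 ± 0.41 (SE) for LSM8 (adjusted p = 0.254), 0.76 ± 0.48 (SE) for SmF (adjusted p = 0.338) and 0.17 ± 0.26 (SE) for LSM1 (adjusted p = 0.693). LSm4 was called without culture C of H-46 (2.23, adjusted p = 0.00658) and without culture A of C-28.2 (1.89, adjusted p = 0.0472), but was 0.94 without culture A of H-46 (adjusted p = 0.310). Without culture C of C-28.2 the differences were 0.80 for LSm4, 0.29 for LSM8, 0.06 for SmF and 0.05 for LSM1, with adjusted p of 0.448 to 0.959.

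Samplings of the same temperature class were also compared. LSM8 was higher in C-28.2 than in C-28.1 by 2.51-fold, and it was the only member called between the cold samplings, in a comparison where 7.91% of genes tested were higher and 8.02% lower. Both C-28.2 libraries of LSM8, 39.6 and 72.5 CPM, lay above the 3 C-28.1 libraries, which ended at 27.5 CPM. The log2 fold change was 1.33 ± 0.27 (SE, adjusted p = 0.0180 by edgeR). It was 0.83 without culture C of C-28.2 (adjusted p = 0.127), 1.18 without culture A of C-28.1 (adjusted p = 0.0534) and 1.31 without culture C of C-28.1 (adjusted p = 0.0846), so the call was lost each time with the sign unchanged. LSM1 had a log2 fold change of 0.02 between the cold samplings (95% interval -0.37 to 0.40). SmF and LSm4 had log2 fold changes of 0.54 (adjusted p = 0.242) and 0.80 (adjusted p = 0.133) by edgeR. Both were called without culture A of C-28.2 (1.02 and 1.25, adjusted p = 0.0318 and 0.0358), and LSm4 also without culture A or C of H-46 (adjusted p = 0.0359 and 0.0355). Without culture C of C-28.2, SmF turned to -0.16 (adjusted p = 0.806), LSm4 was 0.17 (adjusted p = 0.843) and LSM1 -0.11 (adjusted p = 0.811).

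In H-46 against H-42 none of the 4 members passed the test by edgeR, none had an unadjusted p below 0.05, and DESeq2 called 0, where 0.258% of all genes tested were called in either direction. The log2 fold changes were -0.22 for SmF (95% interval -1.01 to 0.58), 0.54 for LSM8 (-0.14 to 1.21), -0.63 for LSm4 (-1.51 to 0.25) and -0.16 for LSM1 (-0.58 to 0.27). LSm4 was called without culture C of H-46 (-1.42, adjusted p = 0.0458) and was -0.14 without culture A (adjusted p = 0.946), and SmF turned to 0.10 without culture A (adjusted p = 0.960). The 4 libraries of the later samplings, H-46 and C-28.2, all held more LSM8 (32.2 to 72.5 CPM) than the 5 libraries of the earlier samplings, H-42 and C-28.1 (17.1 to 27.5 CPM). This grouping was noticed after the values of LSM8 were seen and is a description without a test. Among all genes tested 1.71% showed such a separation upward, and SmF, LSm4 and LSM1 overlapped.

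Nuclear and cytoplasmic members were compared within each library by the ratio of their counts to those of LSM1, which is free of the scaling between libraries. The mean ratio was higher in cold for SmF and lower in cold for LSM8 and LSm4. None of the 3 ratios to LSM1 passed the test after adjustment over the 3.

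**Figure D3:**
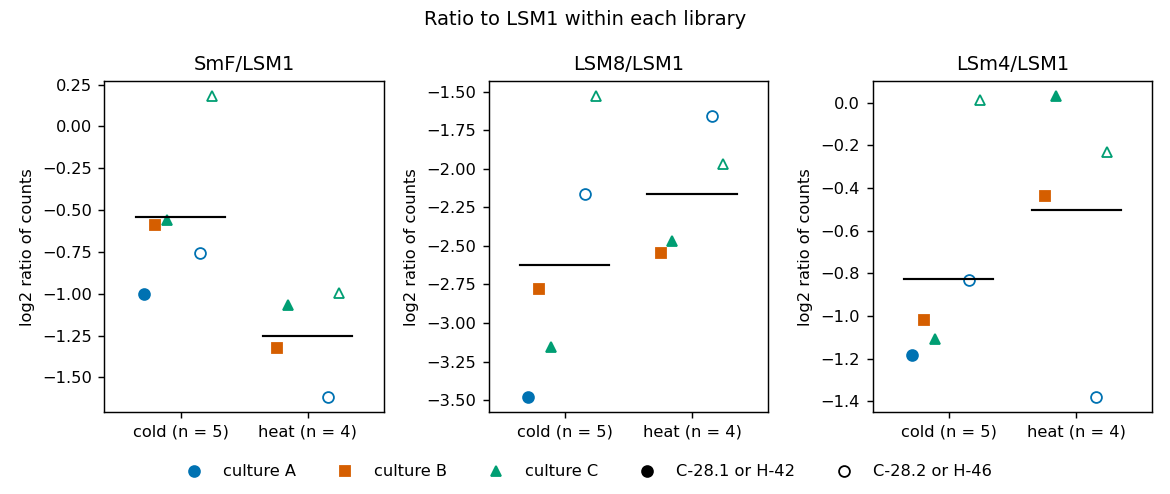
Log2 ratio of the counts of SmF, LSM8 and LSm4 to those of LSM1 in each library (vertical axes differ), cold libraries (n = 5) left and heat libraries (n = 4) right. Symbols mark the cultures, filled points C-28.1 or H-42, open points C-28.2 or H-46, and lines the means: 4 of 5 cold libraries lie above every heat library for SmF/LSM1, while LSM8/LSM1 is lowest in C-28.1.

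The SmF/LSM1 ratio was 0.50, 0.666 and 0.678 in C-28.1 (cultures A, B, C) and 0.593 and 1.13 in C-28.2 (cultures A, C), against 0.399 and 0.477 in H-42 (cultures B, C) and 0.326 and 0.502 in H-46 (cultures A, C). Of the 5 cold libraries, 4 lay above all heat libraries, the exception being culture A of C-28.1, which fell just below culture C of H-46. The ratio was 1.63-fold higher in cold on average, a log2 difference of 0.71 ± 0.26 (SE), with p = 0.0238 in the exact two-sided permutation test and 0.0714 after Benjamini-Hochberg adjustment over 3 ratios. Within cultures the ratio was higher after 4 of 4 cold shifts and lower after 2 of 2 rewarmings. Permuting only within cultures gave an exact p of 0.0556 over 36 arrangements (0.167 adjusted). No arrangement gave a larger rise, so this is the smallest p that a rise can reach within cultures for these values.

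The LSM8/LSM1 ratio was 0.0895, 0.146 and 0.112 in C-28.1 (cultures A, B, C) and 0.223 and 0.347 in C-28.2 (cultures A, C), against 0.171 and 0.181 in H-42 (cultures B, C) and 0.317 and 0.255 in H-46 (cultures A, C). It was lowest in C-28.1, and the ranges of H-46 and C-28.2 overlapped. After rewarming it was higher in both cultures, by 1.82 on the log2 scale in culture A and by 1.19 in culture C. Cold minus heat, the log2 difference was -0.46 ± 0.44 (SE, p = 0.333 in the exact permutation test, 0.397 adjusted). The 2 nuclear members thus had ratios to LSM1 with opposite signs, and their counts added together gave a log2 difference of 0.39 (exact permutation test, p = 0.159).

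The nuclear members were also set against each other, in a ratio added after the values of SmF and LSM8 were seen. A permutation test run on it is for that reason not used as evidence, and the ratio is given as a description. The SmF/LSM8 ratio was 5.59, 4.57 and 6.05 in C-28.1 (cultures A, B, C) and 2.65 and 3.27 in C-28.2 (cultures A, C), against 2.33 and 2.64 in H-42 (cultures B, C) and 1.03 and 1.97 in H-46 (cultures A, C). Every cold library lay above every heat library, though culture A of C-28.2 and culture C of H-42 were almost level. The log2 difference was 1.17 ± 0.38 (SE), a 2.25-fold difference, and was 0.88 to 1.34 when single libraries were left out.

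The LSm4/LSM1 ratio was 0.440, 0.493 and 0.464 in C-28.1 (cultures A, B, C) and 0.562 and 1.01 in C-28.2 (cultures A, C), against 0.739 and 1.02 in H-42 (cultures B, C) and 0.384 and 0.852 in H-46 (cultures A, C). All 3 libraries of C-28.1 lay below both libraries of H-42, and no such order was seen between C-28.2 and H-46. The log2 difference of cold minus heat was -0.32 ± 0.37 (SE, p = 0.397 in the exact permutation test, 0.397 adjusted).

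Other genes of the same pathways were taken from the product names in the study's tables, which were in part selected for a response to temperature in these samples, so their counts are not independent evidence of a direction. Of 8 other spliceosomal genes, 5 were higher in cold than in heat, 1 was lower and 2 did not pass the test, where 21.4% of all genes tested were higher and 20.5% lower, with a median log2 fold change of 0.75 against -0.01 over all genes. Those that rose included the arginine/serine-rich splicing factors Gs33180 (1.98 ± 0.30, SE) and Gs28130 (1.28 ± 0.25, SE), a class of proteins that binds exons and helps to select splice sites, and Gs35570 (0.91 ± 0.25, SE), the p14 protein that contacts the branch site. Gs34230, an ATP-dependent RNA helicase, and Gs52230, a putative splice factor, rose by 1.17 and 0.60. The product name of Gs34230 does not by itself give a role in splicing, though the gene is counted in this list here and below. The gene that fell was Gs38900, subunit 2 of splicing factor 3A, a component of the U2 snRNP (-0.67 ± 0.16, SE), while PRP31, a protein of the U4/U6 snRNP (Gs51190), had a log2 fold change of 0.13 and the putative splicing factor Gs20150 one of -0.24.

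**Figure D4:**
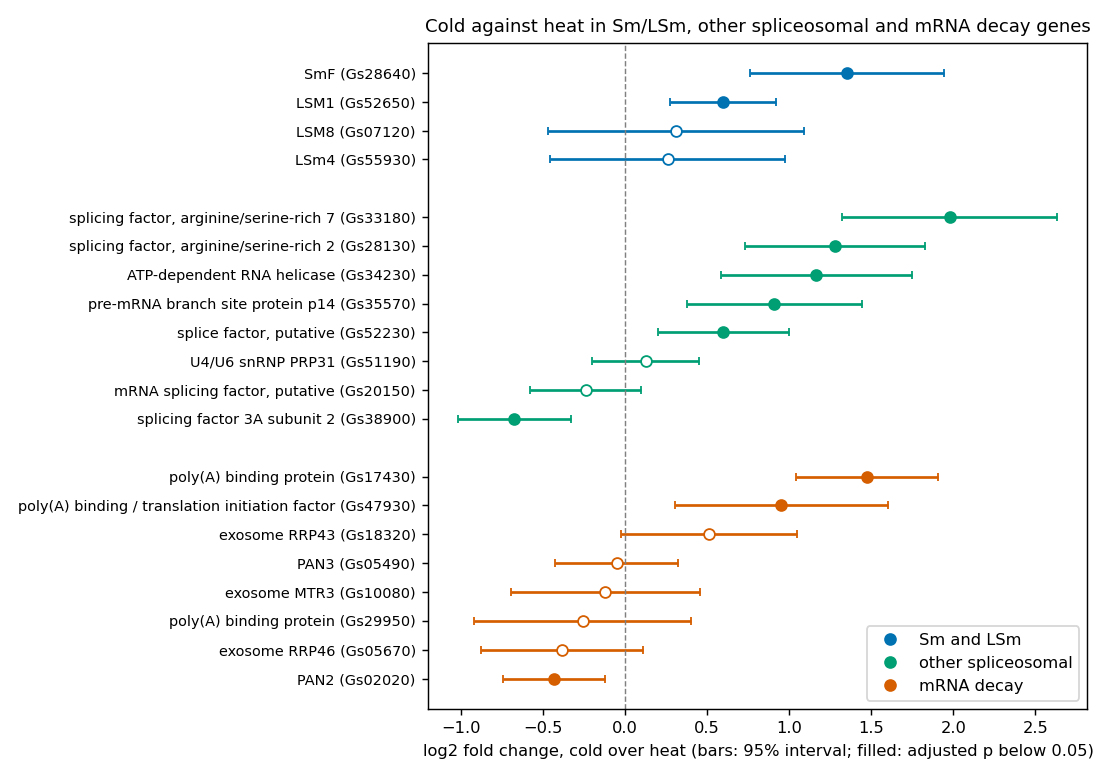
Log2 fold change of cold over heat (horizontal axis) with 95% intervals for the 4 Sm and LSm genes, 8 other spliceosomal genes and 8 mRNA decay genes. Filled points passed an adjusted p below 0.05: SmF (1.35) lies among the spliceosomal genes that rose. LSM1 (0.60) lies below the poly(A)-binding genes Gs17430 (1.47) and Gs47930 (0.95) and above the other decay genes. Its interval overlaps those of several of them, among them RRP43 (0.51).

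Of 8 genes of mRNA decay and poly(A) binding, 2 were higher in cold, 1 was lower and 5 did not pass the test, with a median log2 fold change of -0.09. These counts lie near the shares of all genes tested, 21.4% higher and 20.5% lower. Both that rose are poly(A)-binding proteins, which coat the tails of mRNAs and also act in translation (Gs17430, 1.47 ± 0.20, SE, and Gs47930, 0.95 ± 0.30, SE). The one that fell was PAN2 (Gs02020, -0.43 ± 0.14, SE), the nuclease that starts the shortening of poly(A) tails. Its partner PAN3 (Gs05490, -0.05) and the exosome subunits RRP46 (Gs05670, -0.39), MTR3 (Gs10080, -0.12) and RRP43 (Gs18320, 0.51) were not called, nor was Gs29950, another poly(A) binding protein (-0.26).

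The other spliceosomal genes were also counted at single steps. In C-28.1 against H-42, 5 of the 8 were higher, beside 21.4% of all genes tested, and in C-28.2 against H-46 2 of the 8 were, near the 17.4% of all genes. In C-28.2 against C-28.1 none of the 8 was higher and 3 were lower, beside 7.91% and 8.02% of all genes. Those lower were Gs35570 (log2 fold change -0.98), Gs34230 (-0.97) and Gs33180 (-0.90), with adjusted p of 0.0126 to 0.0250 by edgeR. LSM8 was higher in that comparison, and its difference from these genes was not tested.

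The genes with the profile most like each member were sought among the other 6194 tested genes, by Pearson's r of log2 CPM over the 9 libraries, which share their temperature groups, so the values describe these libraries only. A high r does not mean a change of similar size. For SmF they were Gs25420 and Gs16990 (r = 0.98 each, cold-to-heat log2 fold changes 0.82 and 0.87), and LSM1 ranked 64 (r = 0.93). For LSM1 they were Gs34310 and Gs25940 (r = 0.99 each), and SmF ranked 178. The log2 fold changes of Gs34310 and Gs25940 were 4.42 and 1.96, against 0.60 for LSM1. For LSM8 they were Gs21870 (r = 0.98) and Gs34150 (r = 0.95), whose cold-to-heat log2 fold changes were 0.08 and 0.24, and for LSm4 Gs22540 (r = 0.99) and Gs53820 (r = 0.99), with 0.23 and 0.35. LSM8 and LSM1, which take each other's place in the LSm rings of yeast and human, had r = 0.13, and LSM1 ranked 2516 in likeness to LSM8.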

How the data were processed

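The values that the authors deposited for each library were counts of reads on each gene, whole numbers that had not been normalised. For the splicing analysis the study's methods name Trimmomatic for trimming and STAR for mapping, after which multi-mapped reads were removed; for the gene counts, the tool, annotation and strand setting are not given in the sources used here, so reads of overlapping genes or near-identical copies are uncertain. Samplings and culture letters came from the sample labels.

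Counts were tested with edgeR 4.0.16 (R 4.3.3, limma 3.58.1) by the quasi-likelihood method on the 6195 genes kept by filterByExpr, after TMM normalization, first cold against heat over all 9 libraries and then in a model with the 4 samplings. Adjusted p are Benjamini-Hochberg values over all genes tested, called below 0.05; a stricter call was an adjusted p below 0.01 with a fold above 2.5. For the edgeR fits, SE is the size of the log2 fold change over the square root of F. For the ratios, SE came from the SD of the log2 ratios in cold and in heat. These were pooled for the ratios to LSM1 and not pooled for SmF/LSM8. Ratios to LSM1 and single members were tested by exact two-sided permutation of the libraries. Permutation within cultures was run for the ratios only. For likeness, 0.5 was the prior count. DESeq2 1.42.0, other scalings and filters, culture as a block and leaving out each library were the alternatives. The SmF/LSM8 ratio was chosen after seeing the data, so the permutation test run on it is not used as evidence and the ratio is only described.

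The study's methods and the letters tie libraries to cultures that moved through the timeline. Deviations from the sampling means of same-culture libraries correlated at 0.03 to 0.54 over 10 pairs. Those of different cultures correlated at -0.54 to 0.33 over 20 pairs. In a sampling of 2 libraries the deviations mirror each other, so the pairs are not independent. No libraries of a sampling were duplicates (smallest chi-square per gene 12.6).

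The text names the 4 members, lists of spliceosomal and mRNA decay genes by product name, overlapping and adjacent genes, and the 2 genes most like each member. Members and lists were chosen with earlier results of these data known. Gene lengths and neighbours came from the RefSeq table of assembly ASM34128v1, in which 6510 genes matched by locus tag number; the counts name no build, so no coordinates are given, and no sequences were read. Total counts of 4389066 to 8989387 gave the members 75 to 1571 counts a library. P-values measure the spread between these libraries.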

Additional observations from a re-analysis of the deposited data

Results flagged for a closer look

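Culture C of C-28.2 stood far from the other 4 cold libraries in 4 of the 14 groups of values examined (the 4 members' CPM and the 3 ratios to LSM1, each in cold and in heat). A check of this kind marks about 5% of groups by chance, and these 4 come from a single library, so they are not separate observations. Its SmF level was 237 CPM, where the other cold libraries had 95.6 to 131 CPM. Its LSm4 level was 211 CPM, where the others had 84.2 to 99.8 CPM. Its SmF/LSM1 ratio was 1.13, where the others had 0.50 to 0.678, and its LSm4/LSM1 ratio was 1.01, where the others had 0.440 to 0.562.

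The same library held 2.25 times as much SmF as culture A of C-28.2, 1.83 times as much LSM8 and 2.11 times as much LSm4, but 1.18 times as much LSM1. Of all genes tested, 2.97% had a larger ratio between these libraries than SmF, 7.43% a larger one than LSM8 and 3.99% a larger one than LSm4, against 33.0% for LSM1. The 2 libraries were of similar depth, with 5396826 counts in culture C and 5261373 counts in culture A. The part of this library in the results was measured by leaving it out. Without it SmF and LSM1 were still called in cold against heat, and in C-28.2 against C-28.1 LSM8 lost its call and SmF turned its sign.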

How the results depend on the processing

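In cold against heat, SmF and LSM1 were called, and LSM8 and LSm4 were not, under DESeq2, RLE factors, library totals, both other filters, culture as a block, the 4-sampling model and leaving out any 1 library. With culture as a block the SmF log2 fold change was 1.44. The stricter threshold left 613 genes of 2597 and dropped LSM1 (log2 fold change 0.60). No sign of a called value turned, and every alternative listed could be fitted. The counts of genes called moved by over 1.5 times in several comparisons. In H-46 against H-42 (16 genes) DESeq2 gave 72 and a minimum of 10 counts in every library 10. In C-28.2 against C-28.1 (987 genes) DESeq2 gave 1486 and culture as a block 1605. For the second cold shift minus the first (1 gene) DESeq2 gave 578, library totals 5, no filter 11 and culture as a block 244. Leaving out single libraries gave 1098 to 3159 genes in C-28.1 against H-42 (2629 with all), 0 to 499 in H-46 against H-42, 0 (without culture C of C-28.1) to 1987 in C-28.2 against C-28.1 and 0 to 1907 for the second shift minus the first; the cause was not tested. Where edgeR called 0 genes, 224 to 1608 had an unadjusted p below 0.05. Library totals moved the median of all genes by up to 0.18 (log2) and the share of called genes that were higher to 65.8% from 51.3% in H-46 against C-28.1, to 41.7% from 52.3% in C-28.2 against H-46, to 67.7% from 49.6% in C-28.2 against C-28.1 and to 81.3% from 68.8% in H-46 against H-42. With library totals, LSM1 was also not called in C-28.1 against H-42 (log2 fold change 0.46, adjusted p = 0.0559). The log2 difference of the SmF/LSM8 ratio, added after seeing the data, was 1.17, and 0.88 to 1.34 without single libraries. Culture as a block in the edgeR fits changed the call of 2 member results, LSM8 at rewarming and LSm4 at the second cold shift, and no other. With 2 libraries in 3 of the 4 samplings, leaving out 1 leaves a lone library that is assumed to vary like the others.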

Other observations

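The genes that lie next to the members in the assembly were read from the same fit of cold against heat. Beside SmF, on the side away from the overlapping gene, Gs28630 was not called (log2 fold change -0.28, adjusted p = 0.274 by edgeR). Beside LSM1, Gs52660 was lower in cold than in heat (log2 fold change -0.64, adjusted p = 0.0410 by edgeR) and Gs52640 was not called (0.23, adjusted p = 0.727). Beside LSM8, Gs07110 and Gs07130 were both lower in cold (-0.96 and -0.62, adjusted p = 0.0277 and 0.00456). Beside LSm4, Gs55920 was higher in cold (1.30, adjusted p = 0.00335) and Gs55940 lower (-0.53, adjusted p = 0.0312), though LSm4 itself was not called. The gaps to these neighbours were between 1 and 150 bases, and the sources used here do not say how reads that reach into a neighbour were counted.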
